A study of Mus musculus with 8 samples.

Results

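ETn and MusD endogenous retroviruses of the mouse were examined as 3863 regions of the deposited ATAC-seq count table, which holds 4835895 regions in all and 2968871 retrotransposon copies. They were chosen by name alone, as every copy annotated to class LTR and family ERVK with ETn or ETN in its subfamily name. The 5 subfamilies that matched were the internal parts ETnERV-int (493 copies), ETnERV2-int (1328), ETnERV3-int (248) and MMETn-int (512), together 2581 copies, and the long terminal repeat (LTR) RLTRETN_Mm (1282 copies). MusD does not occur in these names, so ETn and MusD copies were not separated.

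Endogenous retroviruses are remains of retroviral insertions in the germ line, and an intact element consists of an internal part between a pair of LTRs. ETn (early transposon) elements have no working coding genes and are mobilised by proteins that the related MusD elements encode, and new ETn insertions are a known source of mutations in laboratory mice. The LTR holds the promoter, recombination between the LTRs of an element can leave a solitary LTR behind, and in somatic cells these elements are normally packed in repressed chromatin with methylated DNA.

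ATAC-seq, which marks accessible DNA by the cuts of a transposase in isolated nuclei, was run on primary lung fibroblasts of 4 cGAS knockout (KO) and 4 wild-type (WT) mice. Each genotype had 2 female-labelled and 2 male-labelled mice, and the libraries are called F1, F2, M1 and M2 of each genotype, which is also the order of the 4 values given per genotype. All cultures had DMEM/F12 medium with 15% serum and were kept at 5% oxygen and 5% CO2, and the strain, the age of the mice, the passage and the form of the knockout allele are not given in the sources used here. cGAS is a sensor of DNA in the cytosol, and the study asked how its loss alters accessibility. The cell type label and the deletion were not checked here, because no gene annotation in the build of the table (GRCm39) was used.

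Library totals ranged from 43.2 to 72.9 M counts, and ETn and MusD copies took 25585 (WT M1) to 46766 (WT F1) of them. Of the 3863 copies, 786 (20.3%) had fewer than 10 counts over the 8 libraries together, so most results rest on counts summed over copies. The library labelled KO F2 went against its sex label on Y-linked ETnERV2-int copies (values below). It was kept as female in every fit that uses the sex label. The comparison of the sex labels, the interaction of genotype with sex label and the genotype folds of subfamilies are given with and without it. Levels are given as counts per 1000000 counts of the table (CPM) per kb of annotated length, which allows long and short elements to be compared. In bulk ATAC-seq, fewer cells with an open element and less access per cell cannot be told apart.

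The internal parts and the LTRs had different layouts. Internal copies covered 5082 kb, with a median of 1450 bp and 472 copies of at least 4000 bp, of which 218 were MMETn-int, 134 ETnERV-int, 79 ETnERV3-int and 41 ETnERV2-int. LTR copies covered 415 kb with a median of 332 bp. RLTRETN_Mm lay within 10 bp of 335 of 512 MMETn-int copies (65.4%). Within 100 bp, 77 of the 512 had 2 RLTRETN_Mm copies, 269 had 1 and 166 had 0. The other internal subfamilies had other neighbours. ETnERV-int touched ERVB7_1-LTR_MM in 52.5%, RLTR13G in 49.7% and RLTRETN_Mm in 21.3% of copies. ETnERV2-int most often touched RMER16A3 (12.8%), ETnERV3-int most often touched RLTR13A3 (15.3%), and RLTRETN_Mm lay within 100 bp of 5 ETnERV2-int and 0 ETnERV3-int copies. Of the 1282 LTRs, 539 had an ETn or MusD internal part within 100 bp and 743 had none. On the Y chromosome lay 529 copies, 464 of them ETnERV2-int, against 283 copies on X and at most 286 on any autosome (chromosome 7).

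RLTRETN_Mm, the LTR, had the highest level of the 5 subfamilies in every library. Its level was 0.258, 0.247, 0.180 and 0.329 CPM per kb in KO, and 0.287, 0.222, 0.164 and 0.189 in WT. ETnERV-int, the highest internal subfamily, had 0.151, 0.135, 0.0780 and 0.180 CPM per kb in the KO libraries and 0.176, 0.122, 0.0802 and 0.100 in the WT libraries. MMETn-int had 0.135, 0.124, 0.0799 and 0.162 CPM per kb in KO and 0.168, 0.112, 0.0713 and 0.0930 in WT. In these 3 subfamilies KO M2 and WT F1 were the highest libraries, KO M1 and WT M1 the lowest, and the genotypes overlapped. ETnERV3-int had 0.119, 0.0853, 0.0595 and 0.125 CPM per kb in KO and 0.139, 0.0895, 0.0493 and 0.0749 in WT. ETnERV2-int had 0.0914, 0.0768, 0.0574 and 0.111 CPM per kb in KO and 0.110, 0.0702, 0.0480 and 0.0725 in WT. Both showed the same high and low libraries, again with overlapping genotypes.

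The order of the subfamilies was RLTRETN_Mm, ETnERV-int, MMETn-int, ETnERV3-int and ETnERV2-int, with means of 0.234 ± 0.057, 0.128 ± 0.040, 0.118 ± 0.036, 0.0927 ± 0.0322 and 0.0796 ± 0.0229 CPM per kb (SD, n = 8). RLTRETN_Mm was 1.87 times ETnERV-int (1.63 to 2.3 within libraries). ETnERV-int and MMETn-int were neighbours that differed little, with ETnERV-int higher in 7 of 8 libraries at a mean ratio of 1.08. MMETn-int was above ETnERV3-int in 8 of 8 libraries (1.29 times), and ETnERV3-int above ETnERV2-int in 8 of 8 (1.14 times). On autosomes the lower subfamilies lay closer together: ETnERV2-int had 0.102 CPM per kb, and MMETn-int was 1.08 times ETnERV3-int (higher in 7 of 8 libraries). The order itself was the same on autosomes and among autosomal copies outside open regions.

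**Figure D1:**
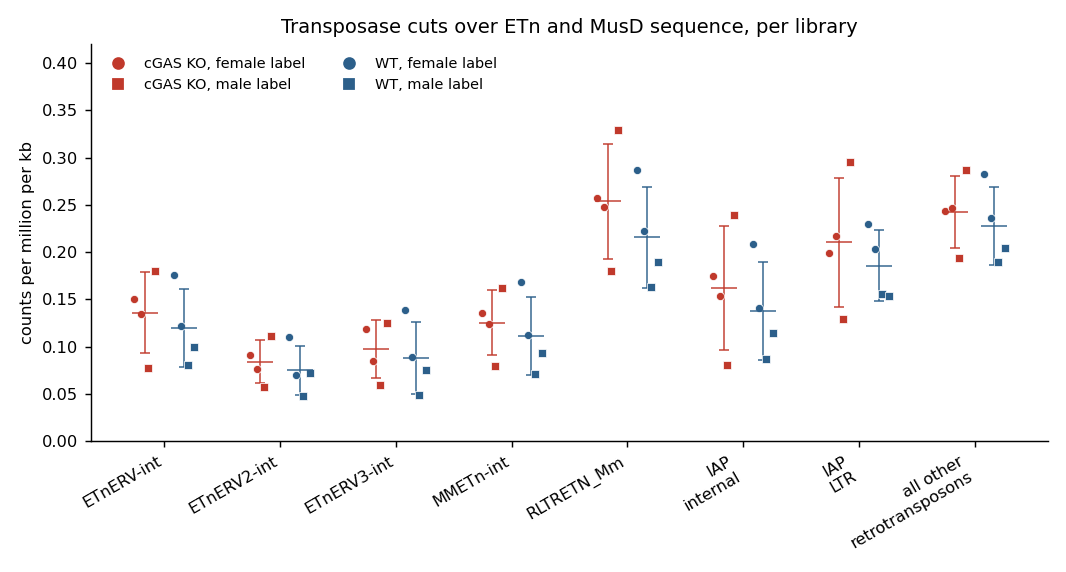
CPM per kb (vertical axis) of the 5 ETn and MusD subfamilies, of IAP internal parts and LTRs and of all other retrotransposons, with 1 point per library, bars at the genotype mean and whiskers of 1 SD (n = 4). The RLTRETN_Mm libraries lie between 0.164 and 0.329, and the internal subfamilies between 0.0480 and 0.180.

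Internal parts had lower levels than LTRs in every library. Over all copies, internal parts had 0.122, 0.105, 0.0690 and 0.144 CPM per kb in KO and 0.147, 0.0975, 0.0624 and 0.0853 in WT, and the LTR level was between 1.96 (WT F1) and 2.62 (WT M1) times as high. The mean log2 difference of internal parts from LTRs was -1.20 ± 0.14 (SD, n = 8), an LTR level 2.29 times the internal one, with LTRs higher in 8 of 8 libraries (exact two-sided paired permutation p = 0.00781, adjusted p = 0.00781 over 2 comparisons, the smallest p that 8 libraries allow). All 8 libraries measure the same copies, so the paired p-values here and below cover repeatability between libraries, not spread over copies. Outside open chromatin regions (OCRs, the peaks of the table) the ratio was 2.15, and on autosomes the log2 difference was -1.04. Internal fragments of 200 to 1000 bp, closer to the LTR in length, also lay below the LTRs, which had 1.96 times their level (1.77 to 2.12). The placing of reads with several equal matches is not given in the sources used here, and its part in the difference was not tested. Internal levels, pooled over subfamilies and chromosomes, had no single direction with length. The classes include the 464 ETnERV2-int copies on Y, with a median of 1441 bp. These had a mean of 0.0201 CPM per kb, against 0.102 for ETnERV2-int on autosomes. Length classes were not compared on autosomes alone. Copies under 200 bp had 0.107 ± 0.033 CPM per kb, those of 200 to 1000 bp 0.120 ± 0.030, those of 1000 to 2000 bp 0.0756 ± 0.0218, those of 2000 to 4000 bp 0.0898 ± 0.0297 and those of at least 4000 bp 0.121 ± 0.038 (SD, n = 8).

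Set against the rest of the retrotransposons, internal parts stood lower, and LTRs lay on either side. The following 4 comparisons were added after seeing the data, and their p-values were adjusted over 6 paired comparisons. Internal parts had 0.428 times the level of all other retrotransposon copies (lower in 8 of 8 libraries, exact paired permutation p = 0.00781, adjusted p = 0.0117). Outside OCRs the internal ratio was nearer to even, at 0.508 (0.409 to 0.587), which was not tested. LTRs had 0.982 times the level of the other retrotransposon copies, higher in 4 of 8 libraries and lower in 4 (exact paired permutation p = 0.586, adjusted p = 0.586). Outside OCRs LTRs had 1.09 times the level of the others, higher in 7 of 8 (exact paired permutation p = 0.0156, adjusted p = 0.0187). In IAP elements, another ERVK lineage with mobile copies, LTRs had 1.37 times the level of internal parts. The LTR over internal ratio of ETn and MusD was 1.68 times that of IAP, and larger in 8 of 8 libraries (exact paired permutation p = 0.00781, adjusted p = 0.0117). This ratio pools all internal parts, including the ETnERV2-int and ETnERV3-int copies that have other LTR neighbours and the 464 ETnERV2-int copies on Y. On autosomes the log2 difference of ETn and MusD internal parts from LTRs was -1.04, against -1.20 over all copies. IAP was not compared on autosomes alone. For internal parts and an LTR that often lie together, the ratio was lower than the pooled 2.29, at 2.02 (1.71 to 2.29) for RLTRETN_Mm over MMETn-int and 1.88 (1.65 to 2.39) for ERVB7_1-LTR_MM over ETnERV-int, and these were not tested against IAP. OCRs, for scale, had 6.28 ± 0.40 CPM per kb (SD, n = 8), between 39.3 (WT F1) and 108 (WT M1) times the internal level.

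LTRs that lay beside an internal part had lower levels than LTRs with none nearby. The LTRs without an internal part within 100 bp had 1.21, 1.26, 1.38 and 1.17 times the level of the others in KO, and 1.15, 1.25, 1.46 and 1.32 times in WT. The ratio was thus above 1 in 8 of 8 libraries, with a mean of 1.27 (log2 difference of those beside an internal part -0.35 ± 0.12, SD, n = 8, exact two-sided paired permutation p = 0.00781, adjusted p = 0.00781). OCRs overlapped 29 of the 743 LTRs without an internal part nearby (3.9%, exact binomial 95% interval 2.63 to 5.56) and 6 of the 539 beside one (1.11%, 0.41 to 2.41). Outside OCRs the ratio was 1.16, still above 1 in 8 of 8 libraries. The part of read placement in this difference was not tested either. LTRs beside an internal part were themselves above the internal parts, at 1.99 times their level (1.8 to 2.15). MMETn-int copies with 2, 1 and 0 RLTRETN_Mm copies beside them had 0.112, 0.118 and 0.123 CPM per kb. Those with 0 had 1.11 times the level of those with 2 (higher in 8 of 8 libraries), and outside OCRs 1.01 times (3 of 8), a difference that was not tested.

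**Figure D2:**
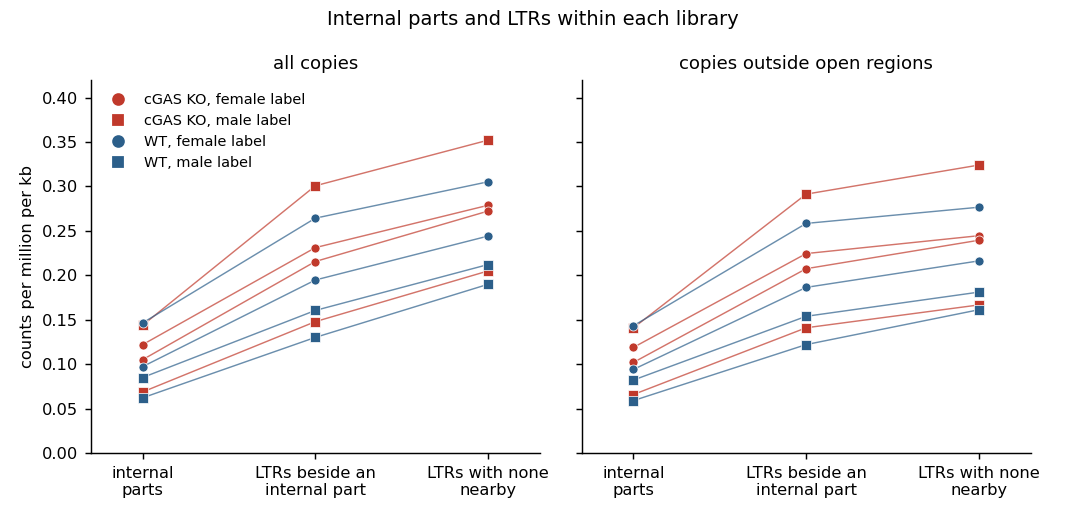
CPM per kb (vertical axis) of internal parts, of LTRs beside an internal part and of LTRs with none within 100 bp, with 1 line per library, over all copies (left) and copies outside OCRs (right). Every line rises from left to right, in total from 0.0624 to 0.147 for internal parts to 0.190 to 0.352 for LTRs with no internal part nearby in the left panel.

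Few ETn and MusD copies overlapped an OCR, and single copies spread widely in level. In all, 67 of the 3863 copies shared at least 1 bp with an OCR, 35 LTRs (2.73%) and 32 internal copies (1.24%). Of the 248 ETnERV3-int copies, 0 overlapped one. Among LTRs of 300 to 360 bp, 2.44% overlapped an OCR (exact binomial 95% interval 1.62 to 3.54), against 2.62% (2.43 to 2.83) of other ERVK rows and 3.99% (3.9 to 4.08) of other retrotransposon rows of that length. Among internal copies of at least 4000 bp the share was 3.18% (1.79 to 5.19), against 4.0% (3.33 to 4.76) of other ERVK rows and 1.33% (1.2 to 1.46) of L1 rows of that length. These intervals cover counting error only. Over the 8 libraries together, LTRs of at least 200 bp ranged from 0.0188 to 2.03 CPM per kb with a median of 0.182, and internal copies of at least 1000 bp from 0 to 0.642 with a median of 0.0846. None of these copies reached the mean OCR level. A read end in both a copy and an OCR counted in equal parts to each, which lowers the level of copies over OCRs. Shorter internal copies are left out of the ranges above. Described below, 2 of them had 4.36 and 3.55 CPM per kb, above every LTR of at least 200 bp. ETnERV2-int held most of the lowest internal copies, 164 of 723 at or below 0.02 CPM per kb, against 0 of 299 ETnERV-int, 4 of 209 ETnERV3-int and 1 of 373 MMETn-int copies. Of these 164 ETnERV2-int copies, 162 lay on Y (63.3% of the Y copies of that length) and 2 elsewhere (0.428%). The levels pool all 8 libraries, 3 of which had 5 to 12 counts on the Y copies. In the other 5 libraries, taken over all lengths, the ETnERV2-int level on Y was 0.246 to 0.452 times that on autosomes. This ratio is not corrected for the number of each chromosome per cell, whose part in it was not tested. In the same 5 libraries internal parts on X had 0.448 to 0.578 times the autosomal level.

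**Figure D3:**
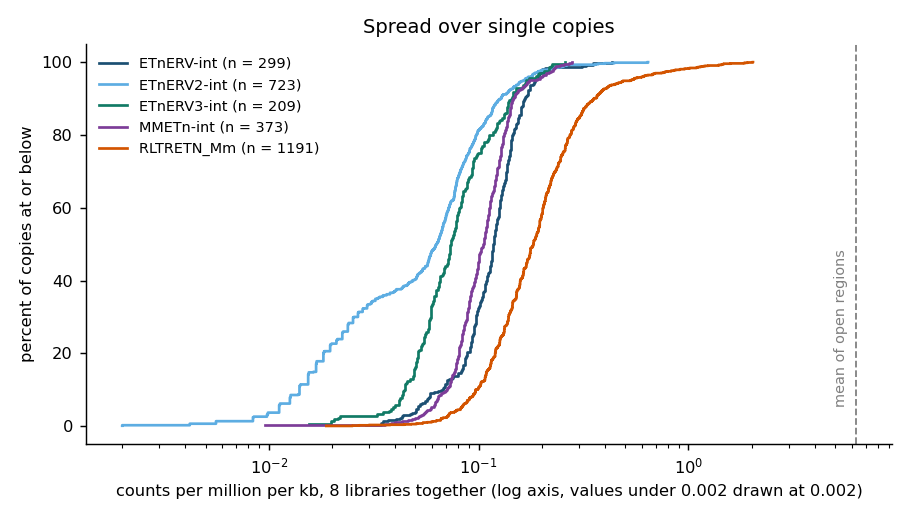
Percent of copies (vertical axis) at or below a level in CPM per kb (horizontal log axis) for internal copies of at least 1000 bp and LTRs of at least 200 bp, with the mean OCR level as a dashed line. At the median the RLTRETN_Mm curve lies to the right of the internal ones, at 0.182 against 0.118 for ETnERV-int, 0.105 for MMETn-int, 0.074 for ETnERV3-int and 0.063 for ETnERV2-int. Its lowest copy (0.019) lies below the lowest ETnERV-int copy (0.029).

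The copies with the highest counts were few and mostly touched an OCR. Values here are CPM with library totals scaled by TMM factors (edgeR's trimmed mean of M values, a correction for library composition), and since copies resemble each other closely, the level of any single copy is uncertain. The highest internal copy was a 707 bp ETnERV2-int on the unplaced scaffold JH584304.1 (66512 to 67389), with 3.31, 2.71, 2.55 and 3.12 CPM in the KO libraries and 3.61, 3.63, 2.61 and 3.26 in the WT libraries. Next were an ETnERV2-int at 6:15714582-15715386, of which 481 bp lay in an OCR, with 2.24 ± 0.74 CPM in KO against 2.56 ± 0.46 for WT (SD, n = 4 each), and a 4154 bp ETnERV-int at 3:59873632-59877785, with 1.72 ± 1.16 and 1.83 ± 0.57 CPM. The last was uneven within KO, with 3.19 and 2.12 CPM in KO F1 and KO M1 and 0.713 and 0.862 in KO F2 and KO M2, and its log2 fold went from -0.09 to -0.72 without KO F1. The 3 highest LTRs were RLTRETN_Mm copies at 15:32233100-32233435 (0.664 ± 0.215 CPM in KO, 0.713 ± 0.167 in WT), 1:134333009-134333329 (0.603 ± 0.137 and 0.641 ± 0.171) and 8:105328426-105328760 (0.678 ± 0.143 and 0.555 ± 0.210). All 3 overlap an OCR by 149 to 303 bp, and a read end in both adds its count in equal parts to each.

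Counts on the sex chromosomes separated the libraries, with 1 exception to the labels. The 464 ETnERV2-int copies on Y had 5, 8 and 12 counts in KO F1, WT F1 and WT F2, and 797, 1127, 467 and 1011 in KO M1, KO M2, WT M1 and WT M2. The library labelled KO F2 had 609 counts, inside the range of the male-labelled libraries. The other 56 internal copies on Y had 405.5 to 666.5 counts in every library, whatever its label. KO F1, WT F1 and WT F2 were among these, with 465, 480 and 405.5 counts, so counts on these copies did not follow the Y chromosome. The placing of reads among similar copies is not given, and whether these counts came from Y was not tested. On X, the internal level was 0.888, 0.810 and 0.726 times the autosomal one in KO F1, WT F1 and WT F2, 0.448 to 0.578 times in the male-labelled libraries and 0.577 times in the library labelled KO F2. LTRs on X (56 copies) had ratios of 0.951, 0.772 and 0.705 in KO F1, WT F1 and WT F2 of 0.544 to 0.759 in the male-labelled libraries and of 0.636 in the library labelled KO F2, so these groups overlapped.

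**Figure D4:**
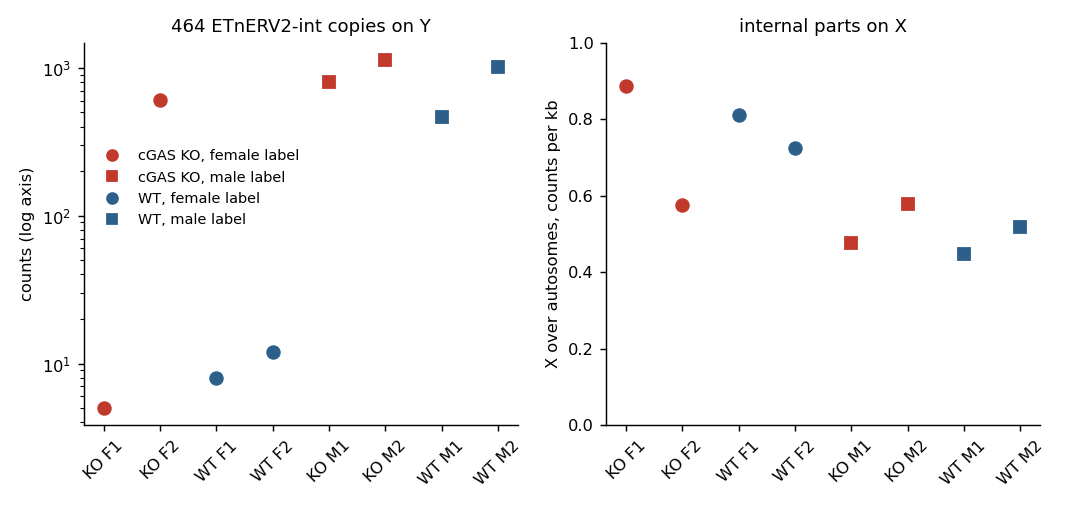
Left, counts (log axis) of the 464 ETnERV2-int copies on Y in each library; right, the level of internal parts on X over that on autosomes (ratio of counts per kb). The library labelled KO F2 has 609 counts and a ratio of 0.577, beside the male-labelled libraries with 467 to 1127 counts and ratios of 0.448 to 0.578.

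Summed over copies, no ETn or MusD subfamily passed the threshold between the sex labels. Male-labelled libraries had 0.797 (ETnERV3-int) to 0.952 (RLTRETN_Mm) times the counts of female-labelled ones, with adjusted p from 0.59 to 0.732 (edgeR quasi-likelihood test over 831 subfamilies, 0 called, 0.0%, and 23 under an unadjusted p of 0.05, 2.77%). Without the library labelled KO F2 the log2 differences went from -0.26 to -0.31 for ETnERV-int, from -0.10 to -0.17 for ETnERV2-int, from -0.33 to -0.45 for ETnERV3-int, from -0.25 to -0.30 for MMETn-int and from -0.07 to -0.10 for RLTRETN_Mm, and adjusted p was at least 0.548. That fit called 1 of 832 subfamilies, which was not an ETn or MusD one, and 28 of the 832 had an unadjusted p under 0.05. On autosomes alone the log2 difference was -0.18 for both ETnERV3-int, which has 70 of its 248 copies on X, and ETnERV2-int. ETnERV-int (-0.27), MMETn-int (-0.24) and RLTRETN_Mm (-0.06) were close to their values over all chromosomes, and adjusted p was at least 0.573.

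The ETn and MusD share of retrotransposon counts followed how much of a library lay in repeats outside OCRs, which ranged from 16.7% (WT M1) to 28.5% (KO M2) of table counts. Among retrotransposon counts outside OCRs, internal parts held 0.282%, 0.240%, 0.215% and 0.272% in KO, and 0.282%, 0.233%, 0.197% and 0.247% in WT. Over the 8 libraries, Pearson's r of this with the repeat share was 0.822, with an exact permutation p of 0.0168 (0.0186 when adjusted over the 2 relations computed). Spearman's rho was 0.786, with an exact permutation p of 0.0279. Without KO M2 and WT M1, the libraries farthest from the median repeat share, r was 0.744. For LTRs, r was 0.789 (exact permutation p and adjusted p both 0.0186), rho was 0.833 with an exact permutation p of 0.0154, and r without the same libraries was 0.531, so this relation leaned more on them. ETn and MusD counts are a small part of both measures. The relation was not computed for other lineages, so it is not shown to be particular to ETn and MusD. Outside OCRs the highest library had 2.34 times the CPM per kb of the lowest for ETn and MusD. That ratio was 3.02 for IAP internal parts, 2.48 for IAP LTRs, 1.91 for other ERVK copies and 1.72 for all retrotransposons. No batch is given in the labels, so the relation was not split further.

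Between cGAS KO and WT, the share of retrotransposon counts held by ETn and MusD elements differed less than libraries of 1 genotype did. It was 0.278%, 0.241%, 0.204% and 0.282% in KO, and 0.285%, 0.232%, 0.189% and 0.233% in WT. WT F1 was highest and WT M1 lowest of all, and the genotypes overlapped. The mean was 0.251% ± 0.036 in KO, against 0.235% ± 0.039 for WT (SD, n = 4 each). KO was 1.07 times WT, with 0.719 to 1.49 as the 95% interval (exact two-sided permutation p = 0.486, adjusted over 4 comparisons 0.714). Internal parts held 0.211% ± 0.033 and 0.199% ± 0.037, KO being 1.06 times WT (0.688 to 1.52, exact permutation p = 0.6, adjusted p = 0.714). This log2 difference turned from 0.09 to -0.01 without WT M1.

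LTRs held 0.0408%, 0.0387%, 0.0358% and 0.0444% of retrotransposon counts in the KO libraries, and 0.0392%, 0.0364%, 0.0333% and 0.0358% in the WT libraries. The means were 0.0399% ± 0.0036 and 0.0362% ± 0.0024, KO being 1.1 times WT (0.914 to 1.33, exact permutation p = 0.2, adjusted p = 0.714), with overlapping genotypes. The internal over LTR ratio of counts per kb was 0.430 ± 0.037 in KO and 0.445 ± 0.053 in WT, KO being 0.969 times WT (0.753 to 1.24, exact permutation p = 0.714, adjusted p = 0.714), and this difference changed sign when either KO M1 or WT F1 was left out. The smallest p that 4 against 4 libraries allow is 0.0286.

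No ETn or MusD subfamily passed the threshold between genotypes in the count model. The edgeR quasi-likelihood test took the sex label as a covariate, with KO F2 as female. It called 0 of the 5 and 0 of all 831 retrotransposon subfamilies tested (0.0%). An unadjusted p under 0.05 was reached by 13 subfamilies (1.56%), with 0 of the 5 among them, and DESeq2 and limma called 0 as well (0.0%). RLTRETN_Mm had 102.8, 98.05, 87.75 and 115.7 CPM in KO and 98.5, 90.4, 79.6 and 89.7 in WT. KO M2 was highest and WT M1 lowest, the genotypes overlapped, and the fold was 1.13 (95% interval 0.965 to 1.32, log2 0.18, SE 0.10, unadjusted p = 0.113, adjusted p = 0.99). MMETn-int averaged 174.8 ± 27.5 CPM (SD, n = 4) in KO against 159.9 ± 33.2 in WT, a ratio of 1.1 (0.872 to 1.39). ETnERV-int had 155.4 ± 32.3 and 142.2 ± 25.5 CPM (1.1, 0.852 to 1.42). ETnERV2-int had 133.3 ± 20.3 and 123.3 ± 25.2 CPM (1.08, 0.832 to 1.41), and ETnERV3-int 72.3 ± 16.0 and 67.2 ± 18.2 CPM (1.09, 0.793 to 1.5). Each had an adjusted p of 0.99, and the intervals leave out a 2-fold difference in either direction. The groups overlapped in 5 of 5, where 0.722% of all subfamilies tested did not overlap.

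With scaling on OCRs and retrotransposon copies together, most other retrotransposon subfamilies shared the direction of these folds, which moved with single libraries. KO was above WT in all 5 fits (median log2 ratio 0.14), as it was in 522 of 831 subfamilies (62.8%, median 0.03), 232 of 271 other ERVK subfamilies (median 0.07) and 18 of 18 subfamilies of a list of other ERVK lineages, IAP and RLTR10 among them (median 0.15). With scaling on retrotransposon copies alone 360 of 831 lay above 0 (median -0.01), so most went the other way. With scaling on OCRs alone 747 did, and the median of all shifted to 0.12. The 5 stayed above 0 under each, with medians of 0.09 and 0.27. Without KO M2, log2 folds were -0.04 for ETnERV-int, -0.01 for ETnERV2-int, -0.04 for ETnERV3-int and -0.01 for MMETn-int, and without WT M1 -0.01 for ETnERV2-int and ETnERV3-int. RLTRETN_Mm was above 0 without each library in turn (0.07 to 0.22). Without the library labelled KO F2, log2 folds were higher in all 5. They were 0.187 for ETnERV-int, 0.186 for ETnERV2-int, 0.247 for ETnERV3-int, 0.196 for MMETn-int and 0.208 for RLTRETN_Mm. With no sex covariate the 5 ranged from 0.104 (ETnERV3-int) to 0.174 (RLTRETN_Mm). KO M2 had the highest and WT M1 the lowest share of counts in repeats outside OCRs, and the part of that share in the folds was not tested. In the test of whether the genotype difference depends on the sex label, edgeR called 0 of the 5 (adjusted p = 0.972 each) and 0 of 831 subfamilies (0.0%), and 0 had an unadjusted p under 0.05. Without the library labelled KO F2, a fit added after seeing the data in which the lone female KO library is assumed to vary like the others, adjusted p was 0.998 for each of the 5.

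**Figure D5:**
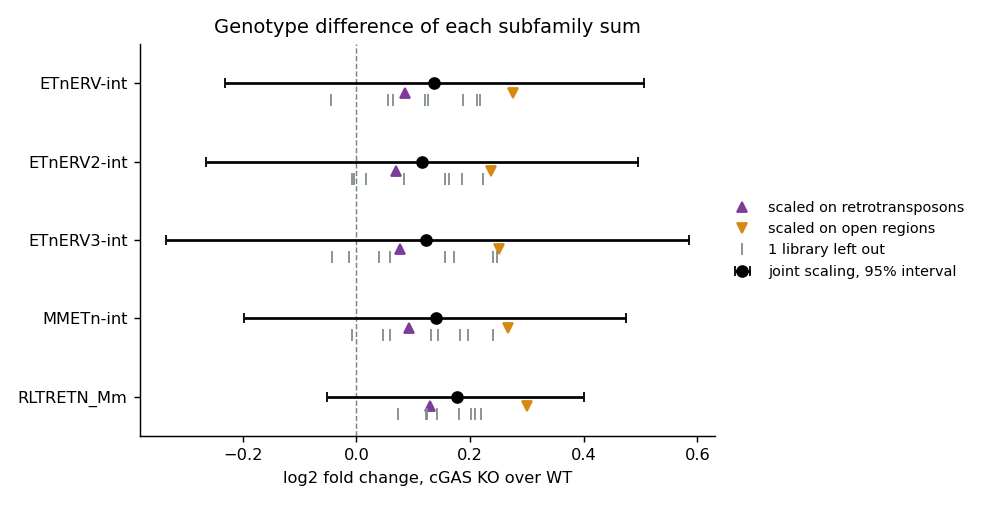
Log2 fold change of each subfamily sum, cGAS KO over WT (horizontal axis), with the 95% interval of the joint scaling (black), other scalings (triangles) and the fits with 1 library left out (grey ticks). All 5 intervals include 0, and grey ticks of the 4 internal subfamilies fall below 0 while those of RLTRETN_Mm lie between 0.07 and 0.22.

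At the level of single copies, 1252 of the 3863 had enough counts for the test, among them 111 of 1282 LTRs, and edgeR called none of them. Of all 421434 retrotransposon copies tested, 0 were called as well (0.0%), while DESeq2 called 45 of 45584 with an adjusted p (0.0987%). Among the 1252, 27 had an unadjusted p under 0.05 (21 higher and 6 lower in KO), a share of 2.16% against 3.73% of all copies tested. The genotypes did not overlap in 21 (1.68%, against 2.48% of all copies), with KO above WT in 17 (1.62% of all copies) and below in 4 (0.854% of all copies). Fold changes lay above 0 in 782 (62.5%), against 53.0% of all copies. Copies pass the count filter partly through the libraries where they are high, so these counts describe the copies tested and not all 3863. DESeq2 gave an adjusted p to 188 of the 1252 and called 0 (16, or 1.28%, had an unadjusted p under 0.05, against 2.75% of all copies). The other copies had fewer counts and enter only the sums.

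The copies with the lowest p had low counts. An ETnERV2-int copy at 1:171727697-171732244 had 0.506, 0.600, 0.581 and 0.725 CPM in the KO libraries and 0.459, 0.388, 0.0707 and 0.0648 in WT, and it was lowest in WT M1 and WT M2, with 4 counts each. Every KO library lay above every WT library, and the fold was 2.87 (95% interval 1.52 to 5.42, edgeR adjusted p = 0.807). An ETnERV2-int copy at 7:32253069-32256747 had 0.256 ± 0.136 CPM in KO against 0.0830 ± 0.0470 in WT (fold 2.97), and an ETnERV-int copy at 16:36039650-36041632 had 0.274 ± 0.045 and 0.106 ± 0.073 CPM (fold 2.6). Lower in KO were an MMETn-int copy at 10:62203343-62206623 (0.178 ± 0.102 against 0.382 ± 0.095 CPM, fold 0.467), an RLTRETN_Mm copy at 6:123507625-123507961 (0.150 ± 0.118 against 0.327 ± 0.146 CPM, fold 0.404) and an ETnERV2-int copy at 4:61518420-61520529 (0.111 ± 0.102 against 0.242 ± 0.092 CPM, fold 0.407). The log2 fold of the last went from -1.30 to -1.97 without KO M1. Adjusted p by edgeR was at least 0.996 for these 5, and they were picked by p among 1252 copies, which favours large folds.

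The 68 OCRs that overlap an ETn or MusD copy did not pass the threshold either. Of these, 34 overlapped RLTRETN_Mm, 13 ETnERV2-int, 11 ETnERV-int and 10 MMETn-int, and their mean levels ran from 0.22 to 27.7 CPM of OCR counts with a median of 1.16. edgeR called 0 of the 68 and 0 of 185267 OCRs tested (0.0%). Unadjusted p lay under 0.05 in 4 of the 68 (5.88%) and in 9.88% of all OCRs. DESeq2 gave 55 of the 68 an adjusted p and called 0 (6, or 8.82%, had an unadjusted p under 0.05, against 10.9% of all OCRs), while it called 2646 of 181675 OCRs (1.46%). The genotypes did not overlap in 3 of the 68 (4.41%), against 5.98% of all OCRs, with KO above WT in 2 (3.47% of all OCRs) and below in 1 (2.51%). The median log2 fold change was -0.02 in the 68 and 0.00018 over all OCRs.

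The OCR with the lowest p, at 3:109174233-109174712, shares 233 bp with an RLTRETN_Mm copy. It had 1.07, 2.325, 0.854 and 2.44 CPM in the KO libraries and 0.384, 0.977, 0.446 and 0.192 in the WT libraries, high in KO F2 and KO M2, and the groups overlapped at KO M1 and WT F2. The fold was 3.49 (95% interval 1.57 to 7.76, edgeR adjusted p = 0.323). The OCR at 17:18779015-18779441, which shares 64 bp with an ETnERV-int copy, had 1.32 ± 0.42 CPM in KO and 0.512 ± 0.223 in WT, with every KO library above every WT library (fold 2.63, 1.39 to 4.95, adjusted p = 0.323). The OCR at 4:83485392-83486306, with 30 bp of RLTRETN_Mm, had 10.5 ± 2.0 against 5.74 ± 3.54 CPM (fold 1.93, adjusted p = 0.369), and WT F1 (11.01 CPM) lay among the KO libraries. Lower in KO were the OCRs at 17:14320100-14320577 (1.02 ± 0.14 against 1.51 ± 0.67 CPM, fold 0.691), 11:50921814-50922435 (10.3 ± 1.4 against 12.05 ± 1.68 CPM, fold 0.854) and 6:127494651-127494901, which lies wholly within an MMETn-int copy (0.228 ± 0.205 against 0.375 ± 0.157 CPM, fold 0.581), with adjusted p of at least 0.697. The log2 fold of the last went from -0.78 to -1.56 without KO F2 (adjusted p = 0.335).

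The most open of these regions overlapped between the genotypes. The OCR at 1:134333027-134334521, with 303 bp of the RLTRETN_Mm copy at 1:134333009-134333329, had 28.3, 27.9, 26.7 and 29.3 CPM in KO and 24.7, 29.4, 28.3 and 27.2 in WT, KO being 1.02 times WT (0.883 to 1.19). All 8 libraries lay close together, and the groups overlapped. The OCR at 8:105328612-105329906, with 149 bp of another RLTRETN_Mm copy, had 20.2 ± 0.6 and 21.8 ± 1.7 CPM (fold 0.93, 0.8 to 1.08), and the OCR at 2:129104830-129105647, with 29 bp of RLTRETN_Mm, 20.1 ± 1.4 and 18.4 ± 2.0 CPM (fold 1.09, 0.915 to 1.3). In each of the 3 the retroviral sequence is a minor part of the OCR (303 of 1495, 149 of 1295 and 29 of 818 bp).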

How the data were processed

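The authors' values are estimated counts, made per the file headers with featureCounts 2.0.3 from paired alignments over peaks and repeat copies together. Reads were reduced to their 5' ends, and a read end in several regions was split equally among them. Tools in the submitters' processing notes include MACS2, Picard, Bowtie2 and Trim Galore, with the build GRCm39. The placing of reads with several equal matches is not given in the sources used here. The members, the lists and the rules were chosen with earlier results of these data known. Counts were rounded and tested with edgeR 4.0.16 (quasi-likelihood, robust, sex label as covariate) over all subfamilies with a mean of at least 100 counts, and over all copies or OCRs kept by filterByExpr. Table totals (OCR totals for OCRs) were library sizes, with TMM factors from OCRs and copies together for subfamilies and copies and from OCRs for OCRs. limma 3.58.1 with voom's quality weights per sample, DESeq2 1.42.0, other scalings, filters and left-out libraries were alternatives. P-values were adjusted by Benjamini-Hochberg over all features tested (threshold 0.05). Shares and levels were compared by exact permutation over 70 assignments, or 256 sign changes within libraries. Fold intervals came from inverting a permutation test on log2 values, while the p-values of the shares used the values unlogged. The self-tests used simulated data. Single copies and OCRs were named by the highest mean CPM (3 per class) and the lowest p (3 per direction). The table gives no strand, so an LTR beside an internal part was taken on either strand, where the same strand had been planned. bedtools 2.31.1 found overlaps. Gene lists and element sequences were not used here.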

Additional observations from a re-analysis of the deposited data

Results flagged for a closer look

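Among 70 groups of 4 libraries examined, 5 held a library far from the other 3, and chance alone flags about 1 in 20 such groups. In KO, the RLTRETN_Mm copy at 1:134333009-134333329 had 0.807 CPM in KO M1, against 0.522 to 0.549 in the other KO libraries. The OCR at 4:83485392-83486306 had 11.01 CPM in WT F1, against 3.36 to 4.42 in the other WT libraries. The OCR at 11:50921814-50922435 had 8.18 CPM in KO M2, against 10.9 to 11.2 in the other KO libraries. The OCR at 6:127494651-127494901, inside an MMETn-int copy, had 0.533 CPM in KO F2, against 0.0932 to 0.1435 in the other KO libraries. The OCR at 2:129104830-129105647 had 18.0 CPM in KO M1, against 20.5 to 21.0 in the other KO libraries.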

How the results depend on the processing

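Calls were 0 for ETn and MusD subfamilies, copies and OCRs under every alternative run and without each library, and the paired differences between internal parts and LTRs and between LTRs with and without an internal part nearby passed in each (log2 -1.23 to -1.17 and -0.368 to -0.32 without single libraries). The lowest adjusted p of a member copy was 0.189, without KO F1, and of an overlapping OCR 0.0501, in DESeq2. Differences that changed sign without single libraries were, as log2 ranges, the internal share (-0.0102 to 0.208), the internal over LTR ratio (-0.117 to 0.0229), ETnERV-int (-0.0441 to 0.217), ETnERV2-int (-0.00757 to 0.222), ETnERV3-int (-0.0437 to 0.247) and MMETn-int (-0.00714 to 0.241). The same held for the copies ETnERV-int at 3:59873632-59877785 (-0.718 to 0.168), ETnERV2-int at 6:15714582-15715386 (-0.386 to 0.0156) and RLTRETN_Mm at 1:134333009-134333329 (-0.259 to 0.0844) and 15:32233100-32233435 (-0.317 to 0.118). The OCR at 1:134333027-134334521 ranged from -0.0185 to 0.0814, and was -0.06 with TMM from OCRs and copies together and -0.0183 with limma. The cause of these changes was not tested. Without the sex label as covariate, 0 members were called among 1086 copies and 67 OCRs tested (lowest adjusted p 0.939 and 0.246).

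With the replicate number within a sex label as a block, log2 folds were 0.119 for ETnERV-int, 0.123 for ETnERV2-int, 0.118 for ETnERV3-int, 0.137 for MMETn-int and 0.172 for RLTRETN_Mm (edgeR adjusted p = 0.971), and the block changed no call. Same-numbered libraries deviated together for subfamilies (r = 0.551 for female and 0.329 for male labels), but over OCRs r was 0.733 and -0.487, so the numbers were not taken as pairs. Over 4 same-numbered pairs the exact test gave p = 0.25 for the share of retrotransposon counts, 0.375 for internal parts, 0.25 for the internal over LTR ratio and 0.125, the smallest possible, for LTRs, whose share was higher in KO in 4 of 4 pairs. Members passing the count filter ranged from 1086 to 3077 copies. Of 1282 LTR copies, 111 passed the main count filter, so most were tested only as a sum.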
